A study of Mus musculus with 4 samples.

Results

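The proteasome is the protease complex that degrades ubiquitin-tagged proteins in the cytosol and nucleus, and the genes described here encode the subunits that all cells make. A barrel-shaped 20S core holds the proteolytic sites inside a pair of beta rings, closed at each end by an alpha ring that acts as a gate. The 19S regulatory particle binds ubiquitin chains, removes them, unfolds the substrate with a ring of ATPases and feeds it into the core, while the 11S activators of the PA28 family open the gate without ATP. In macrophages exposed to inflammatory signals, inducible catalytic subunits can replace the constitutive ones, and the peptides made by the complex supply antigen presentation on MHC class I.

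The set was given by name and comprised 34 genes: the 7 alpha ring genes Psma1 to Psma7, the 7 beta ring genes Psmb1 to Psmb7, the 6 ATPases Psmc1 to Psmc6, 11 other 19S subunits (Psmd1, Psmd2, Psmd3, Psmd4, Psmd6, Psmd7, Psmd8, Psmd11, Psmd12, Psmd13 and Psmd14) and the 3 PA28 genes Psme1, Psme2 and Psme3. Probes on the array whose gene name equals one of these names were taken. That found 33 of the 34 genes with 65 probes, of 37325 gene names and 56605 probes on the array. No probe carried the name Psme2. All 33 genes were well above background on all 4 arrays with the probe that represents each, so none was lost to a filter on low signals.

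The study measured messenger RNA on 1-colour arrays in RAW264.7, a macrophage line of the mouse. Its 4 groups were Mfp2-/- cells with lipopolysaccharide (LPS, the bacterial outer membrane component that activates macrophages), Mfp2-/- cells without LPS, wild-type cells with LPS and wild-type cells without LPS. Mfp2 is the peroxisomal beta-oxidation enzyme encoded by Hsd17b4, and the Mfp2-/- cells are called knockout (KO) and the wild-type cells WT here. How the knockout was made, how many clones it stands for, and the LPS dose and duration were not stated in the labels used here, and each group had 1 array, so no difference of 2 arrays has a replicate check.

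On each array 47.4% to 49.7% of the non-control spots had signals well above background, and 0 were saturated. The number of arrays limits the precision. The spread of replicate spots within an array, taken from probes with 10 spots, gave an SD of 0.0898 for an LPS difference in KO cells and 0.0543 in WT cells on the log2 scale. This SD covers error within an array only and leaves out the spread between cultures. All 8 macrophage markers (Cd68, Csf1r, Adgre1, Lyz2, Itgam, Ptprc, Fcgr1 and Spi1) were above background on every array, with a summed signal of 235929 in KO cells with LPS, 345231 in KO cells without it, 276958 in WT cells with LPS and 317834 in WT cells without it. That sum, of signals not scaled between arrays, was lower with LPS in both genotypes. The 75th percentile of an array's signals was also lower with LPS, at 451 against 553 in KO cells and 472 against 532 in WT cells. The part of the marker sum in the results was not tested. In RNA of whole cultures, a change in the share of cells and a change in the RNA per cell cannot be told apart. Of 15 markers of T, B, epithelial, fibroblast and endothelial cells, 9 were above background on no array, 5 on some and 1, Cd3e, on all, with a summed signal between 268 and 367.

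Levels below are log2 of an array's processed signal minus the log2 of that array's 75th percentile, and a difference of 1 between 2 arrays is 2-fold. That percentile was 451 in KO cells with LPS, 553 in KO cells without it, 472 in WT cells with LPS and 532 in WT cells without it. Levels depend on the probe as well as on the messenger RNA and are compared within a gene only. With LPS, every one of the 33 genes was higher than without it in KO cells and in WT cells, except that Psma1 in KO cells and Psmc3 in both genotypes turned slightly negative with quantile normalization, spike-in centring or the series table. As scaled here, both arrays with LPS lay above both arrays without it for all 33. Among all genes measured on the 4 arrays, 38.8% showed that order of arrays, 44.4% of the genes measured in both comparisons were higher with LPS in both genotypes, and 50% in KO cells and 52.3% in WT cells were higher with LPS at all. The median difference with LPS over the 33 genes was 0.61 in KO cells and 0.54 in WT cells, against 0.000137 in KO cells and 0.0334 in WT cells over all genes measured. All 33 differences were larger than the within-array SD in both genotypes, as were the positive differences of 45.3% of all genes in KO cells and 48.8% in WT cells.

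The shift was wide in reach and small in size. In KO cells 18 of the 33 genes were higher by 1.5-fold or more (20.5% of all genes measured) and 5 by 2-fold or more (11.1% of all genes). In WT cells 13 were higher by 1.5-fold or more (18.3% of all genes) and 4 by 2-fold or more (10.1% of all genes), so the share of the set past 2-fold lay near that of all genes in both genotypes. The counts past 1.5-fold depend on the scaling. Quantile normalization gave 8 members in KO cells (20% of all genes) and 6 in WT cells (17.1%), spike-in centring 7 in KO cells (14.2%) and 6 in WT cells (12.8%), and median centring 25 in KO cells (25.7%) and 13 in WT cells (18.3%). The genes past 2-fold in both genotypes were Psma6, Psmd8 and Psme3. Psmd3 and Psmd11 passed it in KO cells only and Psme1 in WT cells only, which does not show that their responses differ. No member was lower by 1.5-fold or more in either genotype, while 22.1% of all genes in KO cells and 16.9% in WT cells were.

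**Figure D1:**
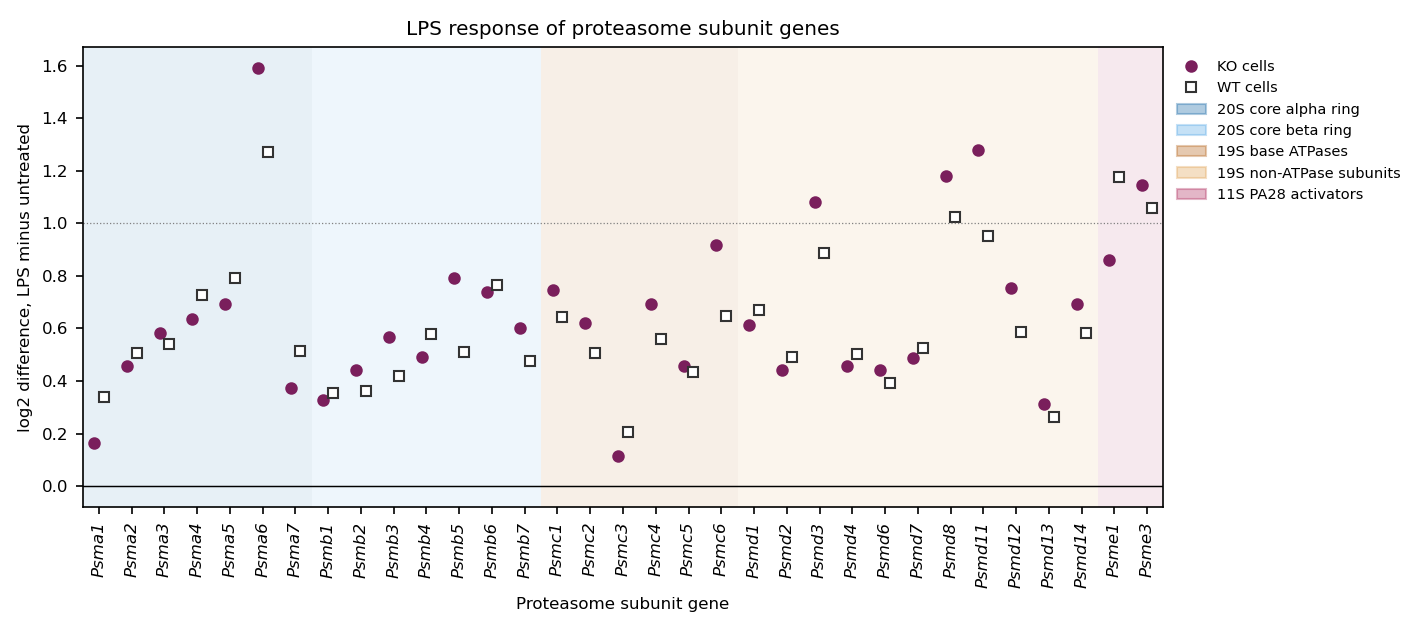
Log2 difference between the array with LPS and the array without it for each of the 33 genes on the x axis, with filled circles for KO cells, open squares for WT cells, shading by particle and a dotted line at 2-fold. As scaled here all points lie above 0 (Psmc3, and Psma1 in KO cells, turn negative with quantile or spike-in scaling), with Psma6 highest at 1.59 in KO cells and 1.27 in WT cells and Psmc3 lowest at 0.11 in KO cells and 0.21 in WT cells.

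One test over arrays was possible, a limma fit with LPS and genotype as additive terms, in which any difference of the LPS responses between genotypes counts as noise and 1 degree of freedom is left per gene. For the LPS term it called 8 of the 33 genes higher at an adjusted p under 0.05 and 0 lower, where 10.5% of all 17490 genes tested were called higher and 9.6% lower. The 8 were Psma5, Psma6, Psmb6, Psmd3, Psmd8, Psmd11, Psme1 and Psme3, and the limma adjusted p over all 33 ran between 0.0345 and 0.362. At an unadjusted p under 0.05 the same fit had 29 of the 33 higher, where 22.2% of all genes were higher (3889 genes) and 3840 genes lower. Only Psma6, Psmd8 and Psmd11 stayed under 0.05 in the limma fit under every alternative tried, with highest adjusted p of 0.0398 for Psma6, 0.0398 for Psmd8 and 0.0454 for Psmd11.

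How large the shift is depends on what the arrays are scaled to. Centring on the spike-in RNAs moved the median LPS difference of all genes by more than 0.1, to -0.24 in KO cells and -0.21 in WT cells. The members' median was then 0.37 in KO cells and 0.30 in WT cells. Under that scaling Psma1 in KO cells and Psmc3 in both genotypes fell below 0, while all 33 members remained above the median of all genes in both. With the spike-in scaling the limma fit called 1522 genes higher and 3297 lower for LPS, against 1834 higher and 1679 lower as scaled here, and it called 5 members higher and 0 lower. Quantile normalization gave a members' median of 0.38 in KO cells and 0.31 in WT cells.

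**Figure D2:**
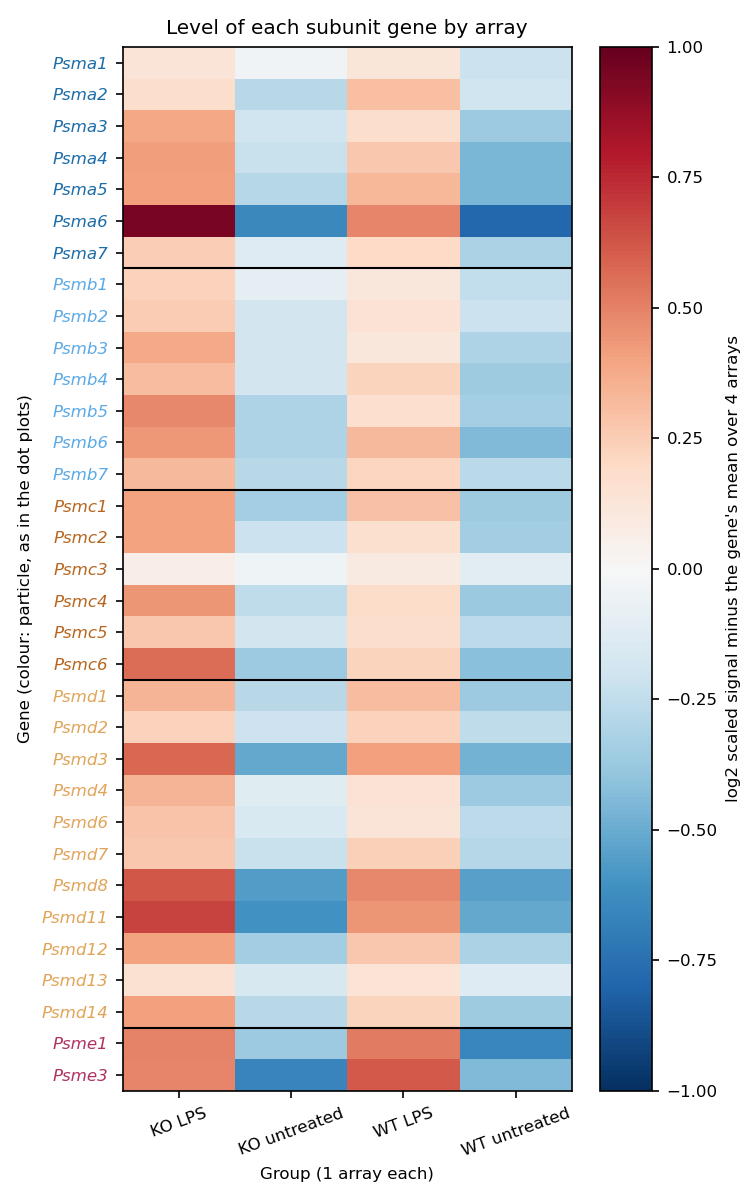
Level of each gene (rows, by particle) on each of the 4 arrays (columns), as log2 scaled signal minus the gene's own mean over the arrays. As scaled here, both LPS columns are redder than both untreated columns in all 33 rows (not for Psmc3, nor for Psma1 in KO cells, with quantile or spike-in scaling), and the contrast is strongest for Psma6.

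Within the 20S core, the 3 beta ring genes that carry the proteolytic sites come first. Psmb5 encodes the subunit with chymotrypsin-like activity, and its probe lies at chr14:55233161-55233220 on the minus strand of mm9, the build of the files' probe coordinates. Its level was 5.58 in KO cells with LPS, 4.79 in KO cells without it, 5.27 in WT cells with LPS and 4.76 in WT cells without it. The untreated arrays of the 2 genotypes were nearly level and the KO array with LPS stood highest. The LPS difference was 0.79 (1.73-fold) in KO cells and 0.51 (1.42-fold) in WT cells, and its limma adjusted p for LPS was 0.0705.

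Psmb6, the subunit with caspase-like activity (chr11:70341093-70341152, plus strand, mm9), measured 7.19 with LPS and 6.45 without it in KO cells, and 7.08 with LPS and 6.31 without it in WT cells. Both LPS arrays were higher by nearly the same step. The difference of 0.74 in KO cells and 0.77 in WT cells was the largest of the beta ring in WT cells, and Psmb6 was the one beta ring gene that the limma fit called, with a log2 difference of 0.75 ± 0.11 (SE) and an adjusted p of 0.0459. Over the alternatives that limma adjusted p ran between 0.00561 and 0.0783. Psmb7, the subunit with trypsin-like activity, measured 4.81 with LPS and 4.21 without it in KO cells, and 4.70 with LPS and 4.22 without it in WT cells. Its untreated arrays were again level between genotypes, and its LPS difference was 0.60 in KO cells and 0.48 in WT cells.

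The promoters of Psmb5 and Psmb6 are shown because each holds, near its start site, the letters of the antioxidant response element that the stress factors NRF1 and NRF2 bind, searched as the letters TGACNNNGC on both strands. The sequences are the 250 bases before the annotated RefSeq start in GRCm38.p6, for Psmb5 at chr14:54617996-54618245 on the minus strand and for Psmb6 at chr11:70525107-70525356 on the plus strand. Capitals mark the matches.
Psmb5: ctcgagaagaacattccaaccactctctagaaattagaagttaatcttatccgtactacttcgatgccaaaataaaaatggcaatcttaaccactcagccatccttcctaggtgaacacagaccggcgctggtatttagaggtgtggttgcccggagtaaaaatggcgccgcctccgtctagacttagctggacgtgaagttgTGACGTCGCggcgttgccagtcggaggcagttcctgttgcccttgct
Psmb6: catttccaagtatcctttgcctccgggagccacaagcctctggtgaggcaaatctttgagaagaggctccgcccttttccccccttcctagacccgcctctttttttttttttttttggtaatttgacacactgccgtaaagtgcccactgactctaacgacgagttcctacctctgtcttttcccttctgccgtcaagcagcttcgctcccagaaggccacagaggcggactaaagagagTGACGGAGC
The match starts 47 bases before the start site in Psmb5 and 9 bases before it in Psmb6. Of the 34 genes, 28 were matched to a promoter in the RefSeq table, with Psmb1, Psmb2, Psmb7, Psmc3, Psmd3 and Psmd7 as the others. In windows of 250 bases before and 50 after the start, with a gene counted where any of its windows matched, 4 of the 28 held these letters (14.3%, Psmb5, Psmb6, Psmc6 and Psmd12), against 14% of all 27025 genes in the table and 16.5% of the 11339 genes measured on the arrays. The share is thus that of promoters in general, and a match is only a description of the letters.

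The 4 beta ring genes without a proteolytic site showed the same order of arrays. Psmb4 measured 7.11 with LPS and 6.62 without it in KO cells, and 7.02 with LPS and 6.44 without it in WT cells. Psmb3 stood at 7.04 with LPS and 6.47 without it in KO cells, against 6.77 with LPS and 6.35 without it in WT cells. For both genes the KO array with LPS was the highest of the 4, and the LPS differences were 0.49 for Psmb4 and 0.57 for Psmb3 in KO cells, against 0.58 for Psmb4 and 0.42 for Psmb3 in WT cells. Psmb1 had 4.88 with LPS and 4.55 without it in KO cells, and 4.76 with LPS and 4.40 without it in WT cells. Psmb2 had 2.38 with LPS and 1.94 without it in KO cells, and 2.27 with LPS and 1.91 without it in WT cells. These 2 genes had the smallest steps of the ring in both genotypes. The median LPS difference of the 7 beta ring genes was 0.57 in KO cells and 0.48 in WT cells.

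The alpha ring had a median LPS difference of 0.58 in KO cells and 0.54 in WT cells, close to the beta ring, but one of its genes stood apart. Psma6 (chr12:56519322-56519381, plus strand, mm9) reached a level of 7.33 in KO cells with LPS and 5.74 without it, and of 6.88 in WT cells with LPS and 5.60 without it. The LPS arrays of both genotypes were far above the untreated ones, and the KO array with LPS exceeded the WT array with LPS. Psma6 thus rose 3.01-fold in KO cells and 2.42-fold in WT cells, with a limma log2 difference of 1.43 ± 0.15 (SE), an adjusted p of 0.0345 and a range over alternatives of 0.00543 to 0.0398. A separate Psma6 probe gave 1.69 in KO cells and 1.20 in WT cells.

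Among the other alpha ring genes, Psma5 was the one the limma fit called. Its level was 6.79 with LPS and 6.10 without it in KO cells, and 6.72 with LPS and 5.93 without it in WT cells. The limma adjusted p of Psma5 was 0.0477, and between 0.00706 and 0.0826 over the alternatives, so the call is not kept by all. Psma4 lay near it, at 6.87 with LPS and 6.23 without it in KO cells, and 6.72 with LPS and 5.997 without it in WT cells. The smallest steps of the ring in KO cells were those of Psma1 and Psma7. Psma1 had 6.003 with LPS and 5.84 without it in KO cells, against 5.999 with LPS and 5.66 without it in WT cells. Psma7 had 6.48 with LPS and 6.11 without it in KO cells, against 6.44 with LPS and 5.92 without it in WT cells. In both genes the untreated KO array stood above the untreated WT array, while the LPS arrays were nearly level between genotypes. In Psma2 both KO arrays lay below the WT array of the same treatment, with 7.04 in KO cells with LPS and 6.58 without it, against 7.16 in WT cells with LPS and 6.66 without it. With median centring the LPS arrays of Psma2 took the opposite order between genotypes. Psma3 had LPS differences of 0.58 in KO cells and 0.54 in WT cells.

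The promoter of Psma6 is shown as that of the core gene with the largest LPS difference, and that of Psmd11, a 19S gene described next, as the one with the largest excess of the KO response over the WT response. Both hold the ETS factor motif CCGGAAG, which on the other strand reads CTTCCGG. The bases are again the 250 before the RefSeq start in GRCm38.p6, for Psma6 at chr12:55398575-55398824 on the plus strand and for Psmd11 at chr11:80428365-80428614 on the plus strand. Capitals mark the matches, and for Psma6 the table has 2 start sites, of which the one with the match is printed.
Psma6: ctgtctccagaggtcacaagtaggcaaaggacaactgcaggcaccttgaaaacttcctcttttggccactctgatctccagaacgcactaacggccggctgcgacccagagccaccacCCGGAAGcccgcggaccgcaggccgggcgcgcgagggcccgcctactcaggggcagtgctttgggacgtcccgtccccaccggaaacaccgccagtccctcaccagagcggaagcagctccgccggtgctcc
Psmd11: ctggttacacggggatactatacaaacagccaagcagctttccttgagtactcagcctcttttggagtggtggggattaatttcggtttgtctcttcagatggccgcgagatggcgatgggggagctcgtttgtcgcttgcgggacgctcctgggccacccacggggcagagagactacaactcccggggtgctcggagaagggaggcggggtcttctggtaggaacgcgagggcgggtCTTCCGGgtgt
The match begins 132 bases before the start in Psma6, where another runs across the end of the printed stretch, and 11 bases before the start in Psmd11. The motif was found in the windows of 11 of the 28 members (39.3%: Psma6, Psmc1, Psmc2, Psmc6, Psmd2, Psmd4, Psmd6, Psmd11, Psmd12, Psmd13 and Psme3), against 9.93% of all 27025 genes and 18.3% of the 11339 measured genes. Only 1 core gene, Psma6, was among the 11. The CCAAT box was found in 11 of the 28 (39.3%), against 42.9% of measured genes. The NF-kB motif was found in 0 of the 28, against 0.582% of measured genes, and the interferon-stimulated response element in 3 (Psmb3, Psmd4 and Psme1), against 3.85% of measured genes. One match each was found for the gamma-activated site TTCNNNGAA (Psmd2, with 8.7% of measured genes) and for the motif of nuclear respiratory factor 1, a protein other than the NRF1 named above (Psma2, with 2.1%). All letters were searched on both strands, the motifs could overlap, and no match says only that these letters are not in this window.

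In the 19S particle, the 17 genes had a median LPS difference of 0.62 in KO cells and 0.56 in WT cells. The ring of 6 ATPases, which unfolds substrates and drives them into the core, had a median of 0.66 in KO cells and 0.53 in WT cells, and held the gene with the smallest step of all 33 in both genotypes. In KO cells that place went to Psmc5 with normexp and to Psma1 with the mean over a gene's probes. Psmc3 measured 6.91 in KO cells with LPS and 6.80 without it, and 6.94 in WT cells with LPS and 6.73 without it. Its difference of 0.11 in KO cells and 0.21 in WT cells turned negative under spike-in centring and quantile normalization. At the other end of the ATPases, Psmc6 had 6.39 with LPS and 5.47 without it in KO cells, and 6.06 with LPS and 5.41 without it in WT cells. Psmc4 had 4.65 with LPS and 3.95 without it in KO cells, and 4.39 with LPS and 3.83 without it in WT cells. For both, the KO array with LPS was the highest of the 4 and the untreated WT array the lowest. The remaining ATPases differed with LPS by 0.75 (Psmc1), 0.62 (Psmc2) and 0.46 (Psmc5) in KO cells, against 0.64 (Psmc1), 0.51 (Psmc2) and 0.43 (Psmc5) in WT cells. None of the 6 ATPases was called by limma.

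The 11 non-ATPase genes held 3 of the 8 genes called by limma. Psmd11 encodes the lid subunit that helps hold the 19S particle on the core, and its probe lies at chr11:80283406-80283920 on the plus strand of mm9. Its level was 3.74 in KO cells with LPS, 2.46 in KO cells without it, 3.51 in WT cells with LPS and 2.56 in WT cells without it. The KO arrays were thus both the highest and the lowest of the 4. Psmd11 rose 2.43-fold in KO cells and 1.93-fold in WT cells, with a limma adjusted p of 0.041 and a range over alternatives of 0.0098 to 0.0454.

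Psmd8, another lid subunit, measured 5.10 with LPS and 3.91 without it in KO cells, and 4.95 with LPS and 3.93 without it in WT cells. It rose 2.27-fold in KO cells and 2.03-fold in WT cells (limma adjusted p = 0.0362, between 0.00731 and 0.0398 over alternatives). Psmd3, also of the lid, measured 6.74 with LPS and 5.66 without it in KO cells, and 6.58 with LPS and 5.69 without it in WT cells. In both genes the untreated arrays differed little between genotypes. Psmd3 rose 2.12-fold in KO cells and 1.85-fold in WT cells, with a limma adjusted p of 0.0402 that ran up to 0.0517 under an alternative.

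The ubiquitin-handling subunits had smaller steps than these 3. Psmd4, a receptor for ubiquitin chains, stood at 6.64 with LPS and 6.18 without it in KO cells, and at 6.45 with LPS and 5.94 without it in WT cells. Psmd14, the deubiquitinase that cuts chains off the substrate, had LPS differences of 0.69 in KO cells and 0.58 in WT cells, and Psmd7, its partner, of 0.49 in KO cells and 0.53 in WT cells. The large scaffold subunits Psmd1 and Psmd2 differed by 0.61 (Psmd1) and 0.44 (Psmd2) in KO cells and by 0.67 (Psmd1) and 0.49 (Psmd2) in WT cells. None of these 5 was called by limma. Psmd2 was at 5.84 with LPS and 5.40 without it in KO cells, and 5.84 with LPS and 5.35 without it in WT cells. Psmd12, a lid subunit, had 6.18 with LPS and 5.43 without it in KO cells, and 6.05 with LPS and 5.46 without it in WT cells. The lid subunit Psmd13 had 5.54 with LPS and 5.22 without it in KO cells, and 5.52 with LPS and 5.25 without it in WT cells. Psmd12 was in the upper part of the group and Psmd13 had, with the probes used, the smallest step of the 11 in both genotypes. A second Psmd13 probe, also made to a RefSeq transcript, gave larger LPS differences, 0.63 in KO cells and 0.41 in WT cells. Psmd6 differed by 0.44 in KO cells and 0.39 in WT cells.

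Of the PA28 activators, both genes with a probe of their name were called by limma. Psme1 encodes the interferon-inducible alpha subunit of the cytosolic activator (chr14:56200194-56200253, plus strand, mm9). Its level was 5.89 in KO cells with LPS, 5.03 in KO cells without it, 5.91 in WT cells with LPS and 4.74 in WT cells without it. The 2 LPS arrays were nearly equal, and the untreated WT array was the lowest of the 4. Psme1 rose 1.81-fold in KO cells and 2.26-fold in WT cells (limma adjusted p = 0.0438, between 0.00961 and 0.0523 over alternatives). Psme3, which forms the nuclear activator and is not known as an interferon target, lies at chr11:101184289-101184348 on the plus strand in mm9. It measured 3.01 with LPS and 1.86 without it in KO cells, and 3.13 with LPS and 2.08 without it in WT cells. Here both KO arrays lay below the WT array of the same treatment, an order that median centring turned for the LPS arrays. A second Psme3 probe, made to another transcript model, also gave the opposite order with LPS, at 0.43 for KO minus WT. Psme3 rose 2.21-fold in KO cells and 2.08-fold in WT cells, with a limma adjusted p of 0.0352 that ran up to 0.0665 under an alternative.

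For Psme2, the partner of Psme1, the nearest measure was a gene named Psme2b, whose 2 probes list RefSeq accessions of both Psme2 and Psme2b, so the 2 genes cannot be told apart. The brighter of these probes measured 6.87 with LPS and 6.01 without it in KO cells, and 6.93 with LPS and 5.90 without it in WT cells. As for Psme1, the untreated WT array was the lowest of the 4 and the 2 LPS arrays were close, with an LPS difference of 0.86 in KO cells and 1.03 in WT cells and a limma adjusted p of 0.0408.

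Most genes could be checked against another probe. Of the 33 genes, 21 had more than 1 probe, and 62 of the 65 probes were above background on all 4 arrays. All 62 had a positive LPS difference in both genotypes. Of the other probes, 2 were above background on no array and a Psmd14 probe on 3 arrays, and their values are not given. In the 15 genes with at least 2 probes made to RefSeq transcripts, the range of a gene's LPS differences over its probes had a median of 0.185 in KO cells and 0.0798 in WT cells. The widest range was 0.36 for Psmd1 in KO cells and 0.25 for Psmd2 in WT cells. Some probes made to other transcript models departed further. One for Psme3 gave 0.74 in KO cells and 0.16 in WT cells, and one for Psmd4 gave 0.88 in KO cells and 0.09 in WT cells. For Psmc6 such a probe gave 0.27 in KO cells and 0.07 in WT cells. The Psmc6 probe used gave 0.92 in KO cells and 0.65 in WT cells. One for Psmc1 stayed closer, at 0.86 in KO cells and 0.66 in WT cells.

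Between genotypes the set differed little. Without LPS, the difference of KO minus WT over the 33 genes had a median of 0.08 and ran between -0.21 (Psme3) and 0.29 (Psme1), against a median of 0.05 over all genes. With LPS it had a median of 0.11 and ran between -0.13 (Psma2) and 0.46 (Psma6), against 0.02 over all genes. In neither state was a member past 1.5-fold in either direction, where 7.17% of all genes were higher and 7.62% lower in untreated KO cells, and 5.74% higher and 10.1% lower in KO cells with LPS. For the genotype term, limma called 0 of the 33 genes and 0 of all 17490 genes (0% of them), and at an unadjusted p under 0.05 it had 0 members and 776 higher and 905 lower genes over all. Other settings gave between 0 and 184 calls over all genes and 0 members in each. Over all genes measured, KO minus WT reached -11.3 without LPS and -11.2 with LPS, yet the fit as scaled here called no gene. The absence of calls therefore does not show that the members are alike between genotypes. Beyond the within-array SD of 0.0619, 20 members were higher and 3 lower in untreated KO cells, against 47.5% of all genes higher and 33.6% lower. Beyond 0.0847, 22 were higher and 2 lower in KO cells with LPS, against 41.4% of all genes higher and 37.4% lower. With median centring the same median with LPS was 0.31 and that of all genes 0.21, all 33 members were above 0 and Psma6 was past 1.5-fold at 0.65, so this offset moves with the scaling.

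Without LPS the alpha ring had the highest median of the rings and 19S groups, a KO minus WT difference of 0.17, beside 0.12 in the beta ring, 0.07 in the ATPases and 0.05 in the other 19S genes. With LPS those medians were 0.07 in the alpha ring, 0.11 in the beta ring, 0.18 in the ATPases and 0.14 in the other 19S genes. Both sets of values are small against the 1.5-fold threshold, and no test of their difference was possible with 1 array per group.

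**Figure D3:**
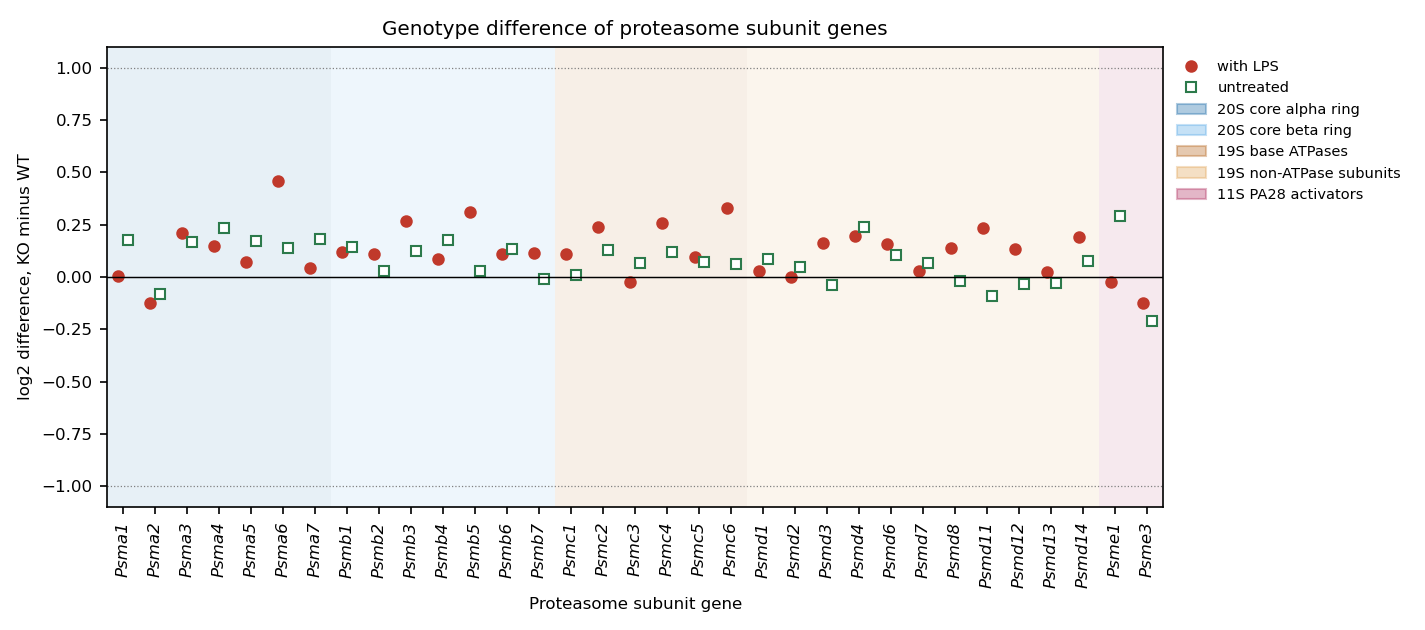
Log2 difference of KO minus WT for each of the 33 genes on the x axis, with filled circles with LPS and open squares untreated, shading by particle and dotted lines at 2-fold. All points lie between -0.21 and 0.46, with Psma6 with LPS the highest and Psme3 untreated the lowest.

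The LPS responses of the genotypes were close across the set. Over the 33 genes, the LPS difference in KO cells and that in WT cells correlated with r = 0.892 (Pearson) and rho = 0.889 (Spearman), a description across genes, which are not independent and share slide and scan. The same correlation over all genes is not given here, so this closeness is not shown to be particular to the set. Of the 6 genes with the largest difference in each genotype 5 were shared, and likewise 5 of the 6 with the smallest. The KO response minus the WT response had a median of 0.05 over the members and -0.01 over the genes measured on all 4 arrays, and 0 members exceeded 1.5-fold in it, where 5.43% of all genes were higher and 8.59% lower. Without a filter on dim probes the median of this quantity over all genes was 0.12, above that of the members. Against a within-array SD of 0.105 for this quantity, 12 members were higher and 3 lower, against 33.8% of all genes higher and 38.4% lower.

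The 5 largest excesses of the KO response were those of Psmd11 (0.33), Psma6 (0.32), Psmb5 (0.28), Psmc6 (0.27) and Psmd3 (0.20). The largest deficit was that of Psme1 (-0.32), followed by Psma1 (-0.17) and Psma7 (-0.14). The median of this quantity was -0.02 in the 20S core and 0.10 in the 19S particle. Which gene lay at either end changed with the setting. With normexp the lowest was Psma4 (-0.33) and the highest Psmc6 (0.35), and with the mean over a gene's probes the lowest was Psmd14 (-0.50) and the highest Psma6 (0.40). The Psmd14 mean includes the probe that was below background on 1 array. These differences have no test of their own here.

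**Figure D4:**
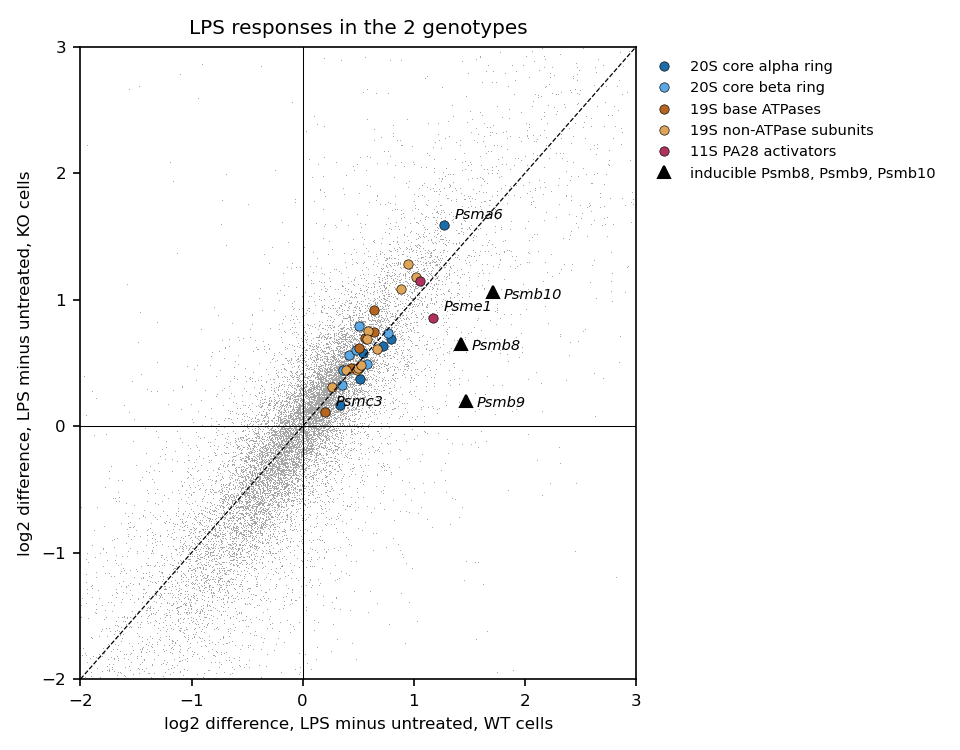
LPS difference in KO cells (y axis) against that in WT cells (x axis), both on the log2 scale, for all genes measured in both comparisons (grey dots), the 33 members coloured by particle and the inducible core subunits as triangles. The dashed line marks equal responses, and the members lie in a band along it, above 0 on both axes as scaled here (Psmc3 and Psma1 fall below with quantile or spike-in scaling), while Psmb9 lies far below it at 0.20 in KO cells and 1.47 in WT cells.

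The inducible counterparts of the catalytic subunits had a smaller LPS difference in KO cells than in WT cells, a contrast that was not tested. Psmb8, Psmb9 and Psmb10 replace Psmb5, Psmb6 and Psmb7 in the immunoproteasome, a form of the core induced by interferon. Psmb9 measured 3.89 in KO cells with LPS and 3.69 without it, and 4.28 in WT cells with LPS and 2.80 without it. Psmb8 measured 4.69 with LPS and 4.04 without it in KO cells, and 4.90 with LPS and 3.48 without it in WT cells. For both genes, and for Psmb10, the untreated WT array was the lowest and the WT array with LPS the highest of the 4. Psmb10 had 6.26 with LPS and 5.20 without it in KO cells, and 6.45 with LPS and 4.73 without it in WT cells. The LPS differences were 0.65 (Psmb8), 0.20 (Psmb9) and 1.06 (Psmb10) in KO cells, against 1.43 (Psmb8), 1.47 (Psmb9) and 1.72 (Psmb10) in WT cells. The KO response minus the WT response was -0.77 for Psmb8, -1.27 for Psmb9 and -0.66 for Psmb10, beside 0.28 for the constitutive Psmb5, -0.03 for Psmb6 and 0.12 for Psmb7. Of the 3 inducible genes limma called Psmb10 for LPS (adjusted p = 0.0487), where 10.5% of all genes were called higher. The thymus-specific Psmb11 was not well above background. The probe of Psma8, a gene known as testis-specific, was well above background on all 4 arrays. It differed with LPS by -0.35 in KO cells and -0.31 in WT cells. Whether this probe reports Psma8 itself was not tested.

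**Figure D5:**
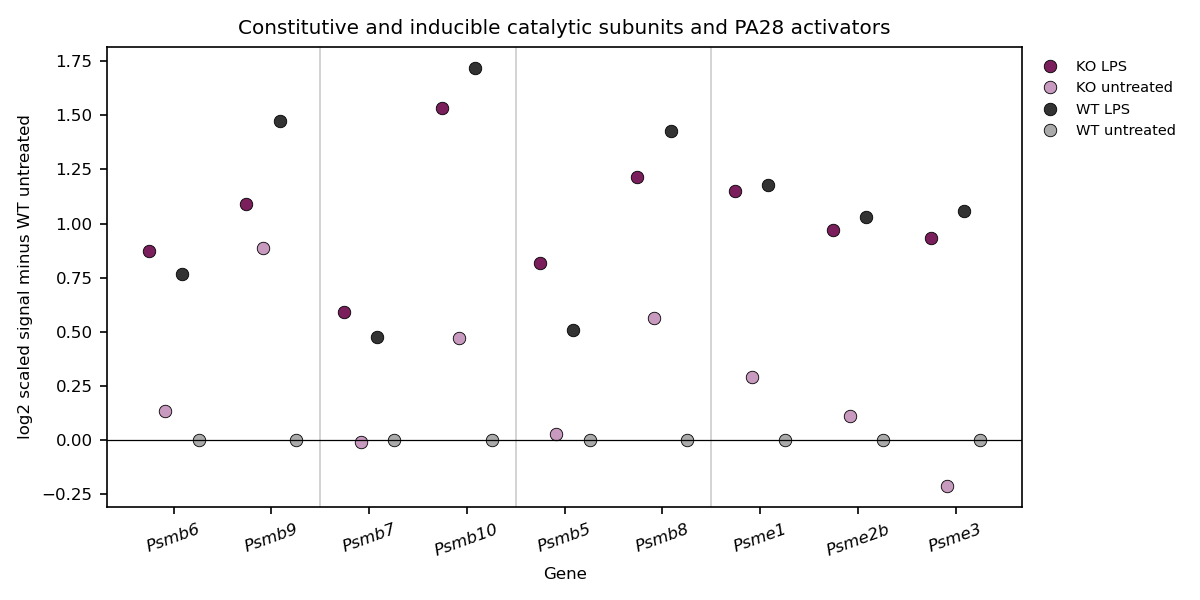
Level on each array minus the level in untreated WT cells (log2, y axis) for each constitutive catalytic gene beside its inducible counterpart, then the PA28 genes, with 1 point per group. Psmb9, Psmb10 and Psmb8 lie above 0 in untreated KO cells (at 0.89 for Psmb9, 0.47 for Psmb10 and 0.57 for Psmb8), where Psmb6 is at 0.13, Psmb7 at -0.01 and Psmb5 at 0.03.

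Genes that build and regulate the complex were taken as lists beside the subunits. Of 8 assembly chaperones on the array, 4 were higher with LPS in KO cells and 3 in WT cells. Of all genes, 50% were higher with LPS in KO cells and 52.3% in WT cells. The median LPS difference of the 8 was -0.05 in KO cells and -0.07 in WT cells. Limma called 1 of the 8 for LPS, where it called 10.5% of all genes higher and 9.6% lower. That 1 was Psmd5, a chaperone of the ATPase ring, which differed by 0.96 in KO cells and 0.76 in WT cells (limma adjusted p = 0.0452). Pomp, the chaperone of core maturation, differed by 0.37 in KO cells and 0.63 in WT cells, Psmg1 by -0.32 in KO cells and -0.24 in WT cells, and Psmg3 by -0.49 in KO cells and -0.24 in WT cells. Psmg1 and Psmg3 form part of the chaperones of the alpha ring, and limma called neither.

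Of 16 other subunits, activators and regulators, limma called 2 higher and 0 lower, where 10.5% of all genes were called higher and 9.6% lower. Nfe2l1 encodes NRF1, the transcription factor known to induce proteasome subunit genes when proteasome activity falls. It stood at 4.47 in KO cells with LPS and 2.86 without it, and at 3.94 in WT cells with LPS and 2.92 without it. Both LPS arrays were above both untreated arrays, the KO array by more, and Nfe2l1 rose 3.05-fold in KO cells and 2.04-fold in WT cells (limma adjusted p = 0.0469). The other call was Adrm1, the ubiquitin receptor that completes the 19S particle, which rose 1.72-fold in KO cells and 1.61-fold in WT cells (limma adjusted p = 0.0482). Ddi2, the protease that activates NRF1, differed by -0.65 in KO cells and -0.78 in WT cells (limma adjusted p = 0.0509), and Nfe2l2, which encodes NRF2, by -0.39 in KO cells and -0.27 in WT cells. The shuttle factor Ubqln1 differed by 1.18 in KO cells and 0.78 in WT cells, and the activator Psme4 by 0.51 in KO cells and 0.63 in WT cells. Limma called none of these 4.

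Upstream of the complex, limma called 2 of 8 ubiquitin and E1 genes higher with LPS, Isg15 and Uba7, and 0 lower. Of all genes, 10.5% were called higher and 9.6% lower. Isg15, an interferon-induced ubiquitin-like modifier, rose 10.8-fold in KO cells and 25.6-fold in WT cells (limma adjusted p = 0.0341), and Uba7, its activating enzyme, 3.38-fold in KO cells and 8.31-fold in WT cells (limma adjusted p = 0.0499). The main ubiquitin-activating enzyme Uba1 differed by 1.06 in KO cells and 0.40 in WT cells, and limma did not call it. Downstream, all 7 MHC class I peptide loading genes were higher with LPS in both genotypes, except that Erap1 in KO cells turned negative with spike-in centring or the mean of its probes. Of the genes measured in both comparisons, 44.4% were higher with LPS in both genotypes. Limma called 2 of the 7 higher, Tapbp and H2-D1, where 10.5% of all genes were called higher. The peptide transporter subunit Tap1 was 2.82-fold higher in KO cells and 6.69-fold in WT cells.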

How the data were processed

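Cy3-labelled RNA of 4 cultures, 1 per group, was measured on 1-colour Agilent arrays (design 074809). The deposited scanner files give the linear intensity of each spot, background subtracted within its array and not normalized between arrays. Per the file headers the extraction software was version 10.7.1.1, while the submitters' processing notes name 9.5.1.1. The deposited flags, a unit of the type other, mark each spot as well above background, saturated or outlying. The deposited series table holds intensity, and for 52841 to 52979 of 56605 probes it was within 0.01 (log2) of quantile-normalized processed signals.

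Outlier spots were left out, spots of a probe averaged, and log2 signals scaled by the array's own 75th percentile (non-control spots). A gene was represented by 1 probe: one with a value on all 4 arrays, then above background, then the brightest. Probe coordinates are the files', in mm9. Promoters and 32994 probe names came from RefSeq tables of GRCm38.p6. A gene counted as measured when 1 or both arrays of a comparison were above background. Where 1 was, the other was set to a bound for the counts past 1.5-fold and 2-fold. Medians, shares above 0 or beyond the within-array SD, and the limma fit used the values without a bound. limma 3.58.1 in R 4.3.3 fitted LPS and genotype to genes above background on at least 2 arrays, with Benjamini-Hochberg adjustment over all of them. On simulated data with 17490 genes, the LPS term recovered 60% of log2 changes of 0.5 and 100% of log2 changes of 1, with 11 false calls. The simulated noise had the same SD of 0.142 in every gene and no difference of LPS responses, and 200 genes were changed. The measured genes differ in spread, so these figures do not estimate recovery or false calls among them. Other steps used Python 3.11.15, numpy 2.4.6, pandas 2.3.3 and matplotlib 3.10.9.

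The arrays shared 1 slide and 1 scan time but had 4 positions on it, so position and group cannot be told apart. The alternatives were normexp (offset 50), quantile normalization, median and spike-in centring (7 of 10 spike-in probes), averaging a gene's probes, filters on dim probes, a 1.5-fold threshold, a trended prior and the series table. Members, lists and the rule for named genes (the 5 highest and 5 lowest members of each comparison, the beta ring and PA28, each with its value on every array, and genes of the lists) were chosen with earlier results of these data known. Some genes of the lists are not reported here.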

Additional observations from a re-analysis of the deposited data

Results flagged for a closer look

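Each result here is a pair of differences of opposite sign, both larger than the spread of replicate spots. With 1 array per group the difference within a pair was not tested. The share of all genes with such a pair is not given here. Taken singly, differences beyond that spread were common over all genes. Without LPS, 47.5% of all genes were higher in KO than in WT cells and 33.6% lower. With LPS, 41.4% were higher and 37.4% lower.

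Among the constitutive subunits this held for Psmd11, whose KO minus WT difference was 0.236 with LPS and -0.0927 without it. The 3 inducible core subunits showed the opposite arrangement: KO minus WT was -0.21 with LPS and 0.57 without it for Psmb8, -0.39 with LPS and 0.89 without it for Psmb9, and -0.19 with LPS and 0.47 without it for Psmb10. Uba7, Tap1 and Tap2 had the same arrangement, with -0.35 with LPS and 0.94 without it for Uba7, -0.22 with LPS and 1.03 without it for Tap1, and -0.19 with LPS and 0.67 without it for Tap2. The core chaperone Pomp had -0.14 with LPS and 0.12 without it. With median centring the signs were no longer opposite for Psmb10 and Pomp, and the difference with LPS for Psmb8, Tap1 and Tap2 and that without LPS for Psmd11 kept their sign but were within the spread of replicate spots. For Tap1 that was also so with the mean over a gene's probes.

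The reverse arrangement was seen for the ubiquitin-activating enzyme Uba1, at 0.13 with LPS and -0.53 without it, for the chaperone Psmg2, at 0.135 with LPS and -0.0782 without it, and for Ecpas, a proteasome adaptor, at 0.22 with LPS and -0.13 without it. For Psmg2 and Ecpas the mean over a gene's probes ended the contrast. With that mean the Uba1 difference with LPS, and with median centring the Psmg2 difference without LPS, were within the spread of replicate spots.

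The LPS differences of Ecpas also had opposite signs, 0.22 in KO cells and -0.13 in WT cells, as did those of a probe under its older name AI314180, at 0.16 in KO cells and -0.18 in WT cells. Spike-in centring gave both probes negative differences in both genotypes. The mean over a gene's probes did so for AI314180, at -0.19 in KO cells and -0.48 in WT cells, and left the Ecpas difference in WT cells within the spread of replicate spots.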

How the results depend on the processing

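The LPS shift of the subunits kept its positive median under every alternative. That median was 0.38 in KO cells and 0.31 in WT cells with quantile normalization and in the deposited series table (0.379 in KO cells, 0.309 in WT cells), 0.37 in KO cells and 0.30 in WT cells with spike-in centring, and 0.75 in KO cells with median centring. The count of members higher by 2-fold or more was 5 in KO cells as reported (2062 of 18516 genes measured). In WT cells it was 4 (1844 of 18330). With spike-in centring it was 2 in KO cells, with 1490 of all genes, and 1 in WT cells, with 1319. In WT cells it was also 1 with quantile normalization (1720 of all genes) or the series table (1714). At 1.5-fold it was 18 in KO cells and 13 in WT cells as reported, 8 in KO cells and 6 in WT cells with quantile normalization or the series table, 7 in KO cells and 6 in WT cells with spike-in centring, and 25 in KO cells with median centring. Median centring gave a KO minus WT median with LPS of 0.31, against 0.21 over all genes, with Psma6 past 1.5-fold. The KO response to LPS minus the WT response then had a median of 0.19 over the members and 0.12 over the genes measured on all 4 arrays. Members called higher by limma for LPS numbered 8 as reported, beside 1834 of all 17490 genes tested. They numbered 25 with normexp (3132 of all genes called higher), 15 with median centring (2680) and 29 with a trended prior (3305). With genes above background on all 4 arrays, 21 members and 2486 of 15617 genes were called higher. Spike-in centring gave 5 members (1522 of all genes) and the mean over a gene's probes 6 (1500). Quantile normalization gave 4 members (1844 of all genes), and the series table gave as many (1860 of 17493). Higher calls over all genes thus also rose in the settings with 15 or more members called, and the cause was not tested. No member was called lower, and no genotype call was made for a member. No paired analysis was possible because each group has 1 array. No replicate could be left out for the same reason. The limma calls rest on 1 residual degree of freedom, and a difference of 2 arrays carries no spread between cultures.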
